A study of Homo sapiens with 4 samples.

Results

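The G2 and mitosis genes described here are 30 genes that carry a cell from the end of DNA replication to cell division. They were chosen by symbol from a list of cyclins, mitotic kinases, spindle motors, kinetochore proteins and chromosome proteins. Each symbol matched 1 Ensembl gene among the 60617 gene rows of the deposited expression table, and all 30 were at 1 FPKM or more in all 4 libraries. FPKM counts fragments relative to transcript length and to library size. A trend of the change with transcript length remained in both lines, as described below. The genes lie on 11 chromosomes.

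RNA came from 2 human prostate cancer cell lines. The 4 groups were 22Rv1 cells given 75 µM morusin for 6 h, untreated 22Rv1 cells, PC3 cells given 46 µM morusin for 6 h and untreated PC3 cells. Morusin is a prenylated flavone of mulberry root bark. 22Rv1 is a line from a prostate carcinoma xenograft, and PC3 is a line from a bone metastasis of prostate cancer. 22Rv1 was grown in RPMI and PC3 in F12, so dose, medium and line cannot be told apart. Each group held 1 library, so a change within a line has no replicate check and no p-value.

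Cyclin A2, cyclin B and CDK1 drive entry into mitosis, Aurora and Polo kinases build the spindle, checkpoint kinases hold anaphase until every chromosome is attached, and the anaphase-promoting complex then destroys the cyclins. Their mRNAs accumulate together late in the cell cycle. In quiescent or G1 cells the DREAM complex represses them through the CHR promoter element, and in G2 cells B-MYB and FOXM1 activate them, with the factor NF-Y bound to CCAAT boxes nearby. Their summed mRNA is often read as a measure of how many cells in a culture are in G2 or mitosis.

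The promoters show what the members share beyond their function. The promoter table of RefSeq on GRCh38.p14, from 250 bases before to 50 after an annotated start, held 33 promoters of 25 members. It held no entry for AURKA, BIRC5, TPX2, TTK and UBE2C. Both strands were searched for CCAAT and for the CHR forms TTTGAA and TTCGAA. The second CHR form reads the same on both strands, and motifs were allowed to overlap. CCAAT was present in 26 of the 33 promoters (78.8%), against 34.6% of 35116 promoters of all genes. Either CHR form was present in 20 (60.6%), against 16.4% of all promoters. Both elements stood together in 19 (57.6%), against 6.38% of all promoters and 4.71% of the 15589 promoters of genes used in these cells. A match is a run of letters and not a measured binding site.

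Stretches of 6 promoters are shown because these genes span the responses described below, from 140 bases before to 10 after the start, 5′ to 3′ on the gene's strand. Capitals mark CCAAT or its reverse complement ATTGG, and TTTGAA or its reverse complement TTCAAA. They are CCNB2 at chr15:59105006-59105155 (+), PLK1 at chr16:23678749-23678898 (+), CENPA at chr2:26785916-26786065 (+), MKI67 at chr10:128126414-128126563 (-), ASPM at chr1:197146660-197146809 (-) and CCNB1 at chr5:69167010-69167159 (+).
CCNB2: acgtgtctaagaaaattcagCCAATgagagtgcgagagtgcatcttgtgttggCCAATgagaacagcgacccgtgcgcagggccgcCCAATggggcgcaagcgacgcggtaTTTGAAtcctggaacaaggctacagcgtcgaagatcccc
PLK1: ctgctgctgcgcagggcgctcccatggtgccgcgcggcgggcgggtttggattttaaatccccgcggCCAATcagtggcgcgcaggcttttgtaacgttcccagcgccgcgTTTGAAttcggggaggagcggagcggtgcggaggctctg
CENPA: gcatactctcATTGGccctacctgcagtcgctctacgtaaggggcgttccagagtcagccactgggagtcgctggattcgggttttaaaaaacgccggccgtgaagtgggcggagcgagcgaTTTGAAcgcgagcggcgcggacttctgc
MKI67: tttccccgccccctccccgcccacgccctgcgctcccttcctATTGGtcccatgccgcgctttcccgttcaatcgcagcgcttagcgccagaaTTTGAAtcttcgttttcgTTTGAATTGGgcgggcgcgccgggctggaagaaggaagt
ASPM: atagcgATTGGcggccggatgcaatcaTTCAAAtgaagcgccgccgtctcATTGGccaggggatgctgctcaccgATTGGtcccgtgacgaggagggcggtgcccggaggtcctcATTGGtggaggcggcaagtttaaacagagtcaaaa
CCNB1: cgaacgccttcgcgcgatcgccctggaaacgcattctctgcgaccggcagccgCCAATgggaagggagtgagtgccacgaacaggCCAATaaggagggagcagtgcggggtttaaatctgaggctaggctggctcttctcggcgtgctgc
CCNB2 had 3 CCAAT boxes upstream of 1 TTTGAA, and ASPM had 4 CCAAT boxes. PLK1 and CENPA had 1 of each. In MKI67 a CHR and a CCAAT box shared letters. CCNB1 had 2 CCAAT boxes and neither CHR form in this stretch.

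**Figure D1:**
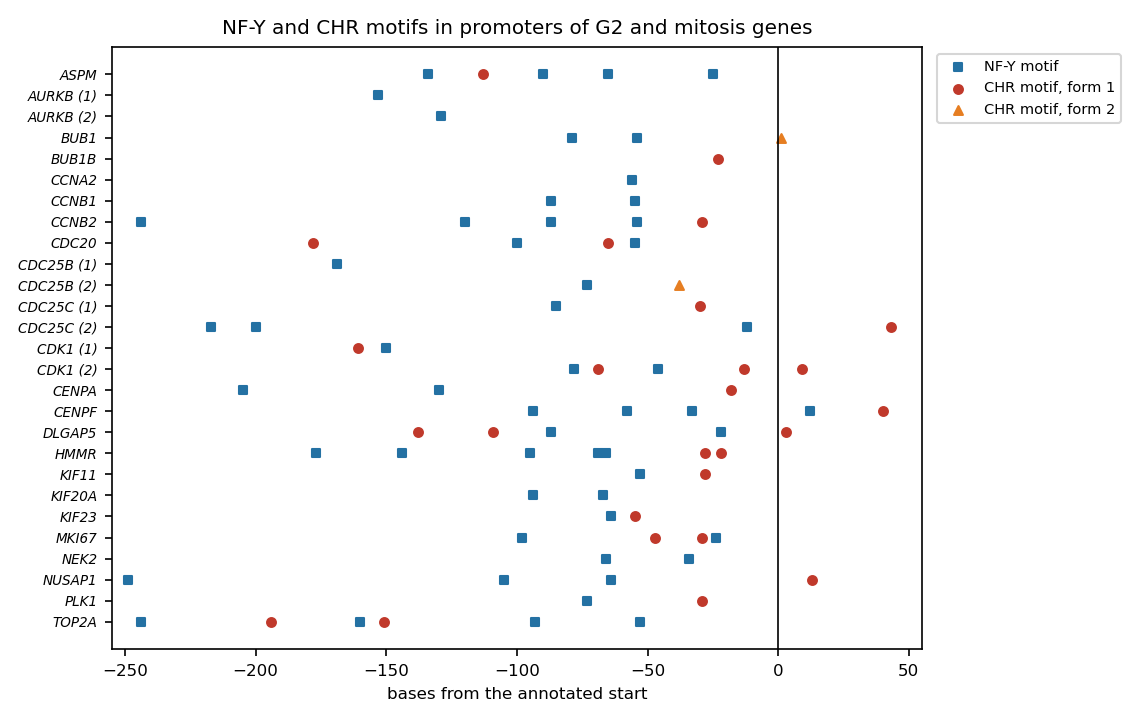
Positions of the NF-Y motif (CCAAT, squares) and of the CHR motif (form 1, TTTGAA, circles; form 2, TTCGAA, triangles) in the promoters of members that held at least 1 of them. The horizontal axis is the distance in bases from the annotated start, and numbered names are separate starts of 1 gene. Of 33 promoters, 24 had a CCAAT box within 150 bases before the start and 17 had a CHR form from 75 bases before the start onward. Shares of all promoters in these narrower windows are not given.

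Untreated cells of both lines expressed the whole set at moderate levels, and PC3 had more of most members. The median member was at 46.5 FPKM in untreated 22Rv1 and at 49.6 FPKM in untreated PC3. In untreated 22Rv1 the members lay between 10.0 FPKM (CDC25C) and 98.3 FPKM (CDC20), and in untreated PC3 between 11.4 FPKM (ASPM) and 147 FPKM (TPX2). On the scale of log2 (FPKM + 1), 22Rv1 minus PC3, 19 of 30 members were below 0, against 46.1% of 14363 genes, and the median was -0.39, against 0.11 for all genes.

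Members at least 2-fold higher in untreated PC3 numbered 6, and none was 2-fold higher in untreated 22Rv1. The all-gene shares were 19.2% and 19.8%. The spindle kinase gene AURKA was at 25.9 FPKM in 22Rv1 and 94.9 FPKM in PC3, a log2 ratio of -1.83. CENPA, which encodes the centromeric histone H3 variant, was at 12.5 and 38.6 FPKM in the same order, and DLGAP5, a spindle protein gene, at 17.2 and 50.7 FPKM. TPX2, BUB1 and CDK1 made up the rest of the 6, with ratios from -1.14 to -1.01. The opposite end held NEK2, a centrosome kinase gene, at 46.3 FPKM in 22Rv1 and 22.8 FPKM in PC3 (ratio 0.99). AURKB, the kinase of the chromosomal passenger complex, was at 53.0 and 28.97 FPKM in 22Rv1 and PC3, and ASPM at 20.6 and 11.4 FPKM. AURKA and AURKB thus ranked opposite ways between the lines.

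Marker lists separated the lines, with 1 luminal gene as an exception. The 9 luminal prostate markers summed to 818 and 851 FPKM in treated and untreated 22Rv1 and to 105 and 182 FPKM in treated and untreated PC3, with 9 and 4 of them at 1 FPKM or more in each library of 22Rv1 and PC3. HOXB13, of that list, was higher in PC3, at 100.1 and 175 FPKM in treated and untreated cells, against 67.0 and 86.5 FPKM in 22Rv1. KLK2, a kallikrein gene chosen from the list after its values were seen, was at 20.4 FPKM in treated and 13.2 FPKM in untreated 22Rv1 and listed at 0 in both PC3 libraries. The 8 PC3 markers summed to 39.6 to 54.0 FPKM in 22Rv1 and 3782 to 4364 FPKM in PC3. Of 13 leukocyte, fibroblast and endothelial markers, 1 reached 1 FPKM in each 22Rv1 library and 3 in each PC3 library, and CDH5 and VWF were at 0 in all 4. The FPKM of a library summed to 408628 and 356195 in treated and untreated 22Rv1 and to 358823 and 335458 in treated and untreated PC3. Read depth, inferred from the smallest steps in the table, was about 19.1 and 23.4 M read pairs in treated and untreated 22Rv1 and 28.6 and 40.6 M in treated and untreated PC3. It is rough, since 57 to 82 of 1490 to 1802 low values lay at the step. Every member rested on at least 254 estimated pairs in 22Rv1 and 689 in PC3. The median counting error of a member's log2 ratio was 0.042 in 22Rv1 and 0.030 in PC3, and it covers counting error only.

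In 22Rv1 the middle of the set lay near that of all genes, and ASPM and UBE2C stood at its lower and upper ends. Of the 30 members, 12 were above and 18 below 0 in log2 change, treated over untreated on the FPKM + 1 scale, against 49.4% and 50.6% of 13361 genes. The median change was -0.06, against -0.01 for all genes. At equal library sums, 4 members were above and 26 below 0 in 22Rv1, and 2 above and 28 below in PC3. All genes were then lower as well, with medians of -0.18 in 22Rv1 and -0.14 in PC3. The members' medians lay -0.07 from the all-gene value in 22Rv1 and -0.20 from it in PC3. All-gene shares above and below 0 at equal sums are not given. The extremes were ASPM, lower at 9.02 FPKM in treated and 20.6 FPKM in untreated cells, and UBE2C, higher at 157 FPKM in treated and 91.5 FPKM in untreated cells. ASPM was the only member at 2-fold or more, with a change of -1.11, against 1.02% of genes at least 2-fold lower and 3.48% at least 2-fold higher. Past a smaller size of 1.25-fold, added after the values were known, 9 members were lower and 1 higher, against 26.2% and 26.3% of all genes.

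In PC3 most of the set was lower by a small amount. Of the 30 members, 26 were below 0 and 4 above, against 55.8% and 44.2% of 12907 genes, and the median change was -0.24, against -0.05 for all genes. No member was at 2-fold or more in either direction (background 1.24% higher and 2.64% lower). At 1.25-fold, 12 members were lower and none higher, against 25.7% and 13.2% of all genes. The summed FPKM of the 30 genes was 1536 in treated and 1774 in untreated PC3, and 1327 in treated and 1334 in untreated 22Rv1. As a share of all FPKM in the library this was 0.428% in treated and 0.529% in untreated PC3, and 0.325% in treated and 0.375% in untreated 22Rv1. In PC3, 25 lower and 3 higher members had a change larger than 1.96 counting errors, and in 22Rv1 14 lower and 8 higher ones. The share of all genes past that cut is not given, so these counts have no background. Fewer cells in G2 or mitosis and less of these mRNAs per cell cannot be told apart in bulk RNA.

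**Figure D2:**
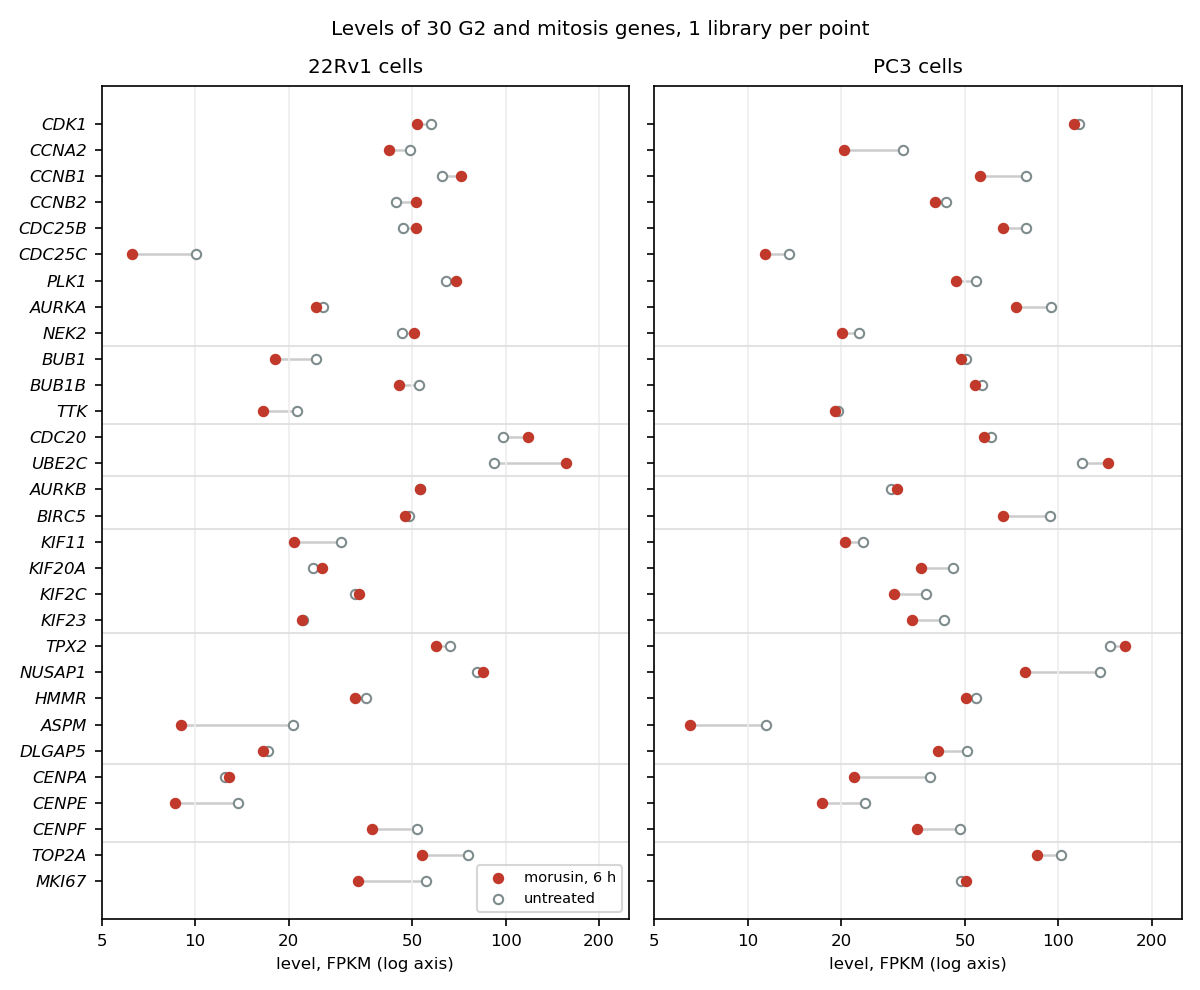
Level in FPKM (log axis) of each of the 30 genes in 22Rv1 (left) and PC3 (right), grouped by role with grey lines between roles. Filled red points are the library treated with morusin, open points the untreated library, and a bar joins them, with 1 library per point. In PC3 the treated point lies left of the untreated one for 26 genes, and in 22Rv1 for 18.

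The kinases, cyclins and phosphatases of mitotic entry split by line. In PC3 all 9 were below 0 (median -0.24), also after rescaling to equal sums, median centring and removal of the length trend. In 22Rv1, 5 were above 0 and 4 below, and the median of 0.10 became -0.09 after rescaling to equal sums. CCNB1, the main cyclin partner of CDK1, was at 72.1 FPKM in treated and 62.3 in untreated 22Rv1 (log2 change 0.21). In PC3 it was at 56.0 FPKM in treated and 78.8 in untreated cells (-0.48). CCNB2 followed the same signs, at 51.6 FPKM in treated and 44.3 in untreated 22Rv1 and at 40.1 in treated and 43.4 in untreated PC3.

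CCNA2, which acts from S phase to early mitosis, was lower in both treated libraries. It was at 42.2 FPKM in treated and 49.3 in untreated 22Rv1 (-0.22). In PC3 it was at 20.5 FPKM in treated and 31.5 in untreated cells (-0.60), the widest change among the cyclins. CDK1, their catalytic partner, differed little, at 51.9 FPKM in treated and 57.5 in untreated 22Rv1 and at 112 in treated and 117 in untreated PC3. CDC25C and CDC25B encode phosphatases that activate CDK1. CDC25C was at 6.26 FPKM in treated and 10.0 in untreated 22Rv1 (-0.61) and at 11.3 in treated and 13.6 in untreated PC3 (-0.24). CDC25B was at 51.5 FPKM in treated and 46.6 in untreated 22Rv1 and at 66.4 in treated and 78.4 in untreated PC3.

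The Polo and Aurora A kinases and NEK2 organise the centrosomes and spindle poles. PLK1 was at 69.4 FPKM in treated and 64.5 in untreated 22Rv1 and at 46.7 in treated and 54.1 in untreated PC3. NEK2 was at 50.7 FPKM in treated and 46.3 in untreated 22Rv1 and at 20.1 in treated and 22.8 in untreated PC3. AURKA was at 24.6 FPKM in treated and 25.9 in untreated 22Rv1, and at 73.0 in treated and 94.9 in untreated PC3 (-0.37). In 22Rv1 the changes of PLK1, NEK2 and CDC25B were above 0 as deposited and below 0 after rescaling to equal sums, while all 3 were below 0 in PC3 under every setting run.

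The checkpoint kinases BUB1, BUB1B and TTK delay anaphase while kinetochores are unattached. All 3 were below 0 in 22Rv1, with changes from -0.42 to -0.20 as deposited and from -0.61 to -0.06 over all settings run. BUB1 was at 18.1 FPKM in treated and 24.6 in untreated 22Rv1, TTK at 16.5 in treated and 21.3 in untreated cells, and BUB1B at 45.5 in treated and 52.4 in untreated cells. In PC3 they lay between -0.08 and -0.04, and turned above 0 once the length trend was removed. BUB1 there was at 48.4 FPKM in treated and 50.5 in untreated cells, and TTK at 19.0 and 19.6.

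UBE2C and CDC20 belong to the machinery that the checkpoint restrains. UBE2C, the ubiquitin-conjugating enzyme of the anaphase-promoting complex, was higher in both treated libraries. In 22Rv1 it was at 157 FPKM in treated and 91.5 in untreated cells (log2 change 0.77), and in PC3 at 145 in treated and 119 in untreated cells (0.28). It was above 0 in both lines under every setting run. CDC20, which recruits substrates to the complex, was at 118 FPKM in treated and 98.3 in untreated 22Rv1 (0.27), and at 57.7 in treated and 60.8 in untreated PC3 (-0.07).

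AURKB and BIRC5 (survivin) form part of the chromosomal passenger complex, which corrects attachments and guides cytokinesis. AURKB hardly differed, at 53.1 FPKM in treated and 53.0 in untreated 22Rv1 and at 30.2 in treated and 28.97 in untreated PC3. BIRC5 was at 47.4 FPKM in treated and 48.8 in untreated 22Rv1. In PC3 it was lower, at 66.4 FPKM in treated and 93.6 in untreated cells (-0.49).

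The kinesins were all below 0 in PC3, also under each scaling and with the length trend removed as a median (-0.22). KIF20A, a motor of the central spindle, was at 36.0 FPKM in treated and 45.8 in untreated PC3. KIF2C, which depolymerises microtubules at centromeres, was at 29.6 and 37.4 FPKM in treated and untreated PC3, and KIF23, the centralspindlin motor, at 33.9 and 42.7 FPKM. In 22Rv1 the same 3 lay within 0.10 of 0 as deposited, and between -0.20 and 0.18 over all settings run. KIF11, which pushes the spindle poles apart and has the longest transcript of the 4, was at 20.8 FPKM in treated and 29.4 in untreated 22Rv1 (-0.48) and at 20.6 in treated and 23.5 in untreated PC3 (-0.18).

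Among spindle proteins, ASPM was lower in both treated libraries. ASPM acts at spindle poles and is known from inherited microcephaly. It was at 9.02 FPKM in treated and 20.6 in untreated 22Rv1 (-1.11) and at 6.52 in treated and 11.4 in untreated PC3 (-0.72). It stayed below 0 in both lines under every setting run, from -1.29 to -0.72 in 22Rv1 and from -0.81 to -0.41 in PC3. TPX2, which activates Aurora A and nucleates spindle microtubules, had opposite signs in the lines, at 59.7 FPKM in treated and 66.2 in untreated 22Rv1 (-0.14) and at 163 in treated and 147 in untreated PC3 (0.15). HMMR was at 32.8 FPKM in treated and 35.5 in untreated 22Rv1, and at 50.3 in treated and 54.1 in untreated PC3. DLGAP5 was at 16.6 FPKM in treated and 17.2 in untreated 22Rv1, and at 40.9 in treated and 50.7 in untreated PC3 (-0.31).

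NUSAP1, a microtubule-bundling protein gene, had the lowest change of the set in PC3, and a gene that overlaps it differed the other way. NUSAP1 was at 78.2 FPKM in treated and 136 in untreated PC3 (-0.79). The gene ENSG00000285920 overlaps it on the same strand (chr15:41284013-41380743, against chr15:41332694-41381050 for NUSAP1 in GENCODE 29 on GRCh38). That gene was at 54.3 FPKM in treated and 1.33 in untreated PC3. The sum of both rows was 132 FPKM in treated and 138 in untreated PC3, a change of -0.06. In 22Rv1 the overlapping gene was at 4.58 FPKM in treated and 2.004 in untreated cells, and NUSAP1 at 84.6 and 80.9. Counted as a sum, NUSAP1 was near 0 in PC3, and the median of the 30 members there was -0.22. This sum was added after the values were known, and FPKM of both rows were added without knowing how shared reads were assigned.

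Other members overlapped gene rows as well. Of the 30 members, 16 overlapped another gene row and 6 overlapped one at 1 FPKM or more. Besides NUSAP1, a same-strand neighbour at 5 FPKM or more was found for CENPA alone, where SLC35F6 was at 11.8 FPKM in both PC3 libraries. CCNA2 overlaps EXOSC9, CDC25C overlaps FAM53C, and KIF20A overlaps BRD8 and CDC23, each on the opposite strand. BRD8 was at 51.2 FPKM in treated and 31.2 in untreated 22Rv1, above KIF20A in both, and at 23.7 and 26.3 in PC3. The labels do not state whether counting used strand, so reads in these overlaps cannot be told apart.

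The centromere genes held some of the lowest changes. CENPA was at 21.9 FPKM in treated and 38.6 in untreated PC3 (-0.79). In 22Rv1 it was at 12.8 and 12.5 FPKM in treated and untreated cells (0.03, with a counting error of 0.10). CENPE, the kinetochore motor that moves chromosomes to the spindle equator, was at 8.59 FPKM in treated and 13.8 in untreated 22Rv1 (-0.62) and at 17.4 in treated and 23.9 in untreated PC3 (-0.44). CENPF, a large coiled-coil kinetochore protein gene, was at 37.3 FPKM in treated and 51.8 in untreated 22Rv1 (-0.47) and at 35.1 in treated and 48.1 in untreated PC3 (-0.44). CENPE and CENPF have long transcripts. With the length trend removed, CENPE was at -0.30 in 22Rv1 and -0.17 in PC3, and CENPF at -0.091 in 22Rv1 and -0.14 in PC3, while CENPA was at -0.18 in 22Rv1 and -0.83 in PC3.

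TOP2A untangles sister chromatids and MKI67 encodes the proliferation marker Ki-67, which coats mitotic chromosomes. TOP2A was at 53.9 FPKM in treated and 75.5 in untreated 22Rv1 (-0.48) and at 85.5 in treated and 102 in untreated PC3 (-0.25). MKI67 was at 33.5 FPKM in treated and 55.4 in untreated 22Rv1 (-0.71). In PC3 it was at 50.3 FPKM in treated and 48.7 in untreated cells (0.04), and this sign turned after rescaling to equal sums.

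**Figure D3:**
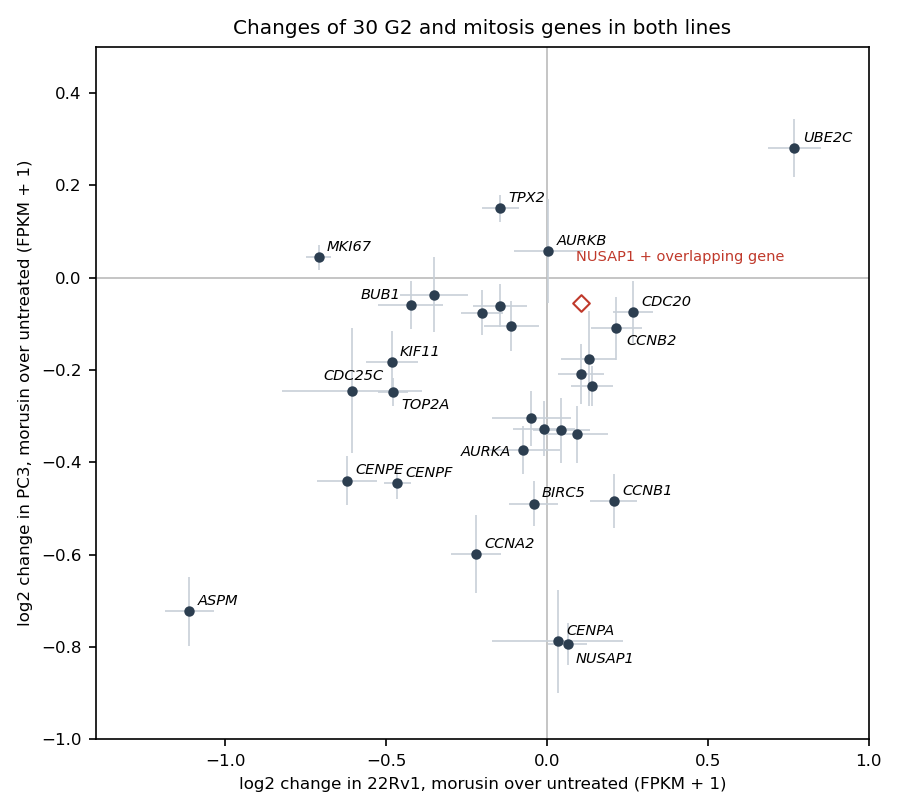
Log2 change of each member, morusin over untreated on the FPKM + 1 scale, in 22Rv1 (horizontal) against PC3 (vertical), with bars of 1.96 counting errors on either side that cover counting error only. The open red diamond is the sum of NUSAP1 and the gene that overlaps it. ASPM is low in both lines, UBE2C is high in both, and CENPA and NUSAP1 are low on the PC3 axis alone.

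The changes of the 30 genes in the 2 lines followed each other weakly. Pearson's r across the members was 0.24 and Spearman's rho 0.05 (n = 30 genes, each point from 1 pair of libraries per line). Below 0 in both lines were 16 members and above 0 in both were 2, UBE2C and AURKB, the second of which turned below 0 after rescaling to equal sums. The 12 others had opposite signs, against 32.2% of the 11240 genes used in both lines. The difference of changes, 22Rv1 minus PC3, was above 0 for 16 members and below 0 for 14, and the all-gene share above 0 is not given. Its median was 0.28, against 0.08 for all genes, in a split set with quartiles of -0.22 and 0.38. The difference ranged from -0.75 for MKI67 to 0.86 for NUSAP1 as deposited and 0.82 for CENPA. With no replicates the difference between the lines was not tested.

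In 22Rv1 the members' changes followed transcript length. The members' longest transcripts run from 914 bases (UBE2C) to 12678 bases (MKI67) in GENCODE 29, with a median of 2964 bases. In 22Rv1 the log2 change correlated with log2 length at r = -0.80 across the 30 members and at r = -0.47 across 13296 genes, with slopes of -0.33 and -0.21 per doubling of length. In PC3 the same values were -0.19 across members and -0.30 across 12858 genes, with slopes of -0.06 and -0.12. These correlations describe genes of 1 library pair, which share a library and its normalization, and are no test.

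The 6 members of 4500 bases or more (MKI67, ASPM, CENPF, CENPE, TOP2A and KIF11) were all below 0 in 22Rv1, with a median of -0.55 that was -0.29 with the all-gene length trend removed. The 5 members under 2000 bases (UBE2C, AURKB, CENPA, CDC20 and CDK1) had a median of 0.03 in 22Rv1, which was -0.18 with the trend removed. UBE2C kept 0.41 of its 0.77, ASPM -0.72 of its -1.11, and MKI67 -0.27 of its -0.71. No member was then at 2-fold. In PC3 the long members had a median of -0.34, those of 2000 to 4500 bases -0.24 and the short ones -0.06. Removing the trend there left CENPA at -0.83, CCNA2 at -0.52, CCNB1 at -0.45 and BIRC5 at -0.42. MKI67 was there at 0.38. Whether RNA quality or library preparation moved with length was not tested.

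**Figure D4:**
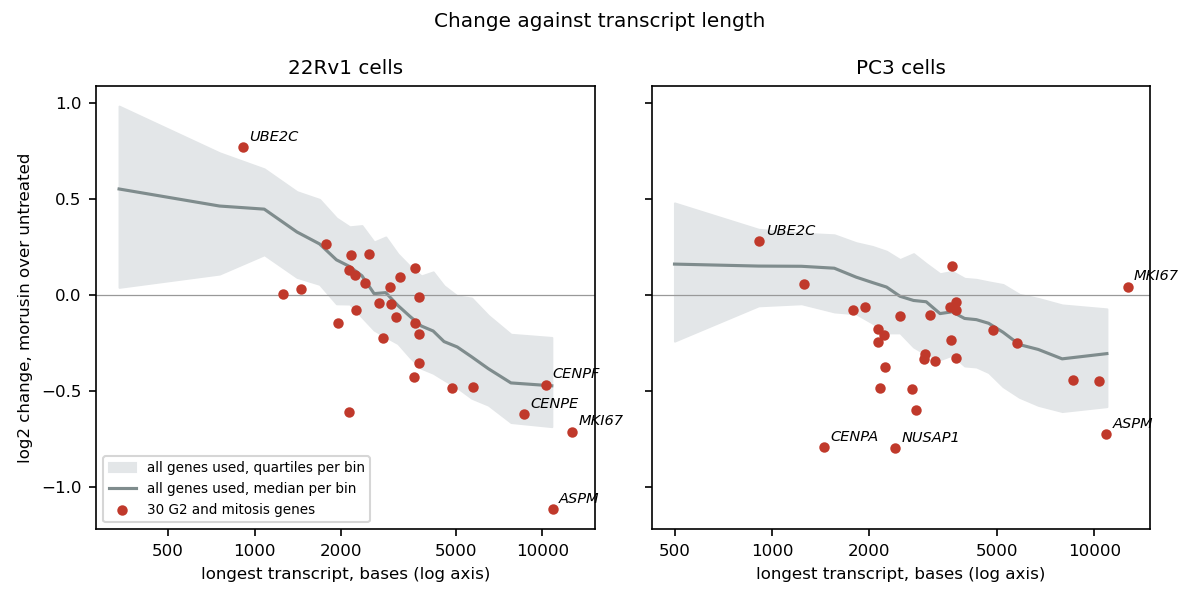
Log2 change, morusin over untreated on the FPKM + 1 scale, against the longest transcript in bases (log axis) in 22Rv1 (left) and PC3 (right). Red points are the 30 members, the grey line and band are the median and quartiles of all genes used in 20 bins of length. In 22Rv1 the members run down along the all-gene band (r = -0.80). In PC3 several members lie below the band, among them CENPA, CCNA2, CCNB1 and NUSAP1 as deposited, not summed with the gene that overlaps it.

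A response shared by both lines was the comparison that allowed a test. Limma, fitted to log2 (FPKM + 1) with a term for treatment and one for line, called 49 genes higher (0.351% of 13980) and 33 lower (0.236%) at a Benjamini-Hochberg adjusted p of 0.05. None of the 30 members was called. At an unadjusted p under 0.05, 3 of the 30 members were lower and 1 higher. These are no larger shares than those of all genes, 10.8% and 7.75%. These 4 are ASPM, with a shared log2 change of -0.92 ± 0.22 (SE; limma adjusted p = 0.119), CENPE with -0.53 ± 0.20 (limma adjusted p = 0.219), CENPF with -0.46 ± 0.18 (limma adjusted p = 0.236) and UBE2C with 0.53 ± 0.19 (limma adjusted p = 0.208). With the length trend removed, members at an unadjusted p under 0.05 were 1 lower and 0 higher, and with median centring 1 lower and 1 higher. With all libraries brought to equal sums, limma called 1278 genes lower (9.14%), among them 3 of the 30 members, a share near that of all genes. The 3 were ASPM (limma adjusted p = 0.00127), CENPE (limma adjusted p = 0.0386) and CENPF (limma adjusted p = 0.0394).

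Other genes of mitosis, from 5 further lists of 55 genes, also had more members below than above 0 in both lines as deposited. In 22Rv1, 37 of the 55 were below 0, against 50.6% of all genes, with a median of -0.15. In PC3, 35 were below 0, against 55.8% of all genes, and the median of -0.12 lay -0.07 from that of all genes, with none at 2-fold in either line. With the length trend removed, 2 lists had a median above 0 in PC3. These were kinetochore and checkpoint genes (0.14) and cytokinesis genes (0.05), and the rest lay between -0.09 and -0.03. PTTG1 (securin), a target of the anaphase-promoting complex, was at 87.1 FPKM in treated and 47.1 in untreated 22Rv1 (0.87) and at 81.7 and 81.4 in PC3. SMC2, a condensin subunit, was at 20.5 FPKM in treated and 38.4 in untreated 22Rv1 (-0.87) and at 28.0 and 28.1 in PC3. In PC3 the lowest of these genes were FAM83D, a spindle protein gene, at 32.2 FPKM in treated and 58.7 in untreated cells (-0.85), PSRC1 at 8.06 and 15.0 (-0.82) and the kinesin gene KIF14 at 11.0 and 19.5 (-0.77).

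Of 18 kinetochore and checkpoint genes outside the set, 9 were above and 9 below 0 in PC3, with a median of -0.03. CENPA, CENPE and CENPF lay between -0.79 and -0.44 there, and the last 2 have long transcripts. With the length trend removed, the list median in PC3 was 0.14, with CENPE at -0.17, CENPF at -0.14 and CENPA at -0.83. NDC80, the microtubule-binding core of the kinetochore, was at 36.9 FPKM in treated and 39.7 in untreated PC3. MAD1L1, a checkpoint protein gene, was at 12.7 FPKM in treated and 8.06 in untreated PC3 (0.60) and at 18.8 and 13.0 in 22Rv1 (0.50). Of 16 genes of the anaphase-promoting complex and its regulators, UBE2S, the chain-elongating enzyme that follows UBE2C, was at 150 FPKM in treated and 85.9 in untreated 22Rv1 (0.80), and at 84.0 and 77.1 in PC3. FBXO5, an inhibitor of the complex, was lower in both, at 12.7 FPKM in treated and 21.0 in untreated 22Rv1 and at 8.55 and 14.1 in PC3.

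The transcription factors that control these promoters had opposite signs of the median in the lines. Of 15 genes for MuvB, DREAM, B-MYB, FOXM1 and NF-Y, 12 were below 0 in 22Rv1 (median -0.25), against 50.6% of all genes. In PC3, 11 were above 0 (median 0.16), against 44.2% of all genes. Both medians kept their sign under each scaling and with the length trend removed. The list pools genes of the repressing DREAM complex with activators, so its median does not give a direction of control. FOXM1 was at 81.0 FPKM in treated and 95.9 in untreated 22Rv1 (-0.24) and at 83.5 in treated and 66.9 in untreated PC3 (0.32). NFYC was at 20.6 FPKM in treated and 13.4 in untreated PC3 (0.59).

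A list of 13 CDK1 inhibitors and regulators also holds CDC25A and the CDK subunits CKS1B and CKS2. Its median was 0.31 in 22Rv1 and 0.19 in PC3, and 0.18 and 0.26 with the length trend removed. The list was split in 22Rv1, with 7 above and 6 below 0, against 49.4% of all genes above. In PC3, 9 were above and 4 below, against 44.2% of all genes above. CKS2 was at 73.7 FPKM in treated and 39.8 in untreated 22Rv1 (0.87), and at 48.4 and 53.4 in PC3. GADD45A, a stress protein that interferes with CDK1 and cyclin B1, was at 90.2 FPKM in treated and 23.1 in untreated PC3 (1.92) and at 11.2 and 6.83 in 22Rv1 (0.64). CDKN1A (p21) was at 10.1 FPKM in treated and 6.76 in untreated PC3 (0.51), and at 8.93 in treated and 16.2 in untreated 22Rv1 (-0.80). CDC25A, the phosphatase of S phase and mitotic entry, was at 5.13 FPKM in treated and 9.91 in untreated PC3 (-0.83) and at 13.7 and 20.02 in 22Rv1 (-0.51). Of 26 G1/S and replication genes, 20 were above 0 in PC3 (median 0.30), against 44.2% of all genes. In 22Rv1, 19 were below 0 (median -0.16), against 50.6% of all genes. The medians had the same signs under each scaling and with the trend on longest transcript removed.

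**Figure D5:**
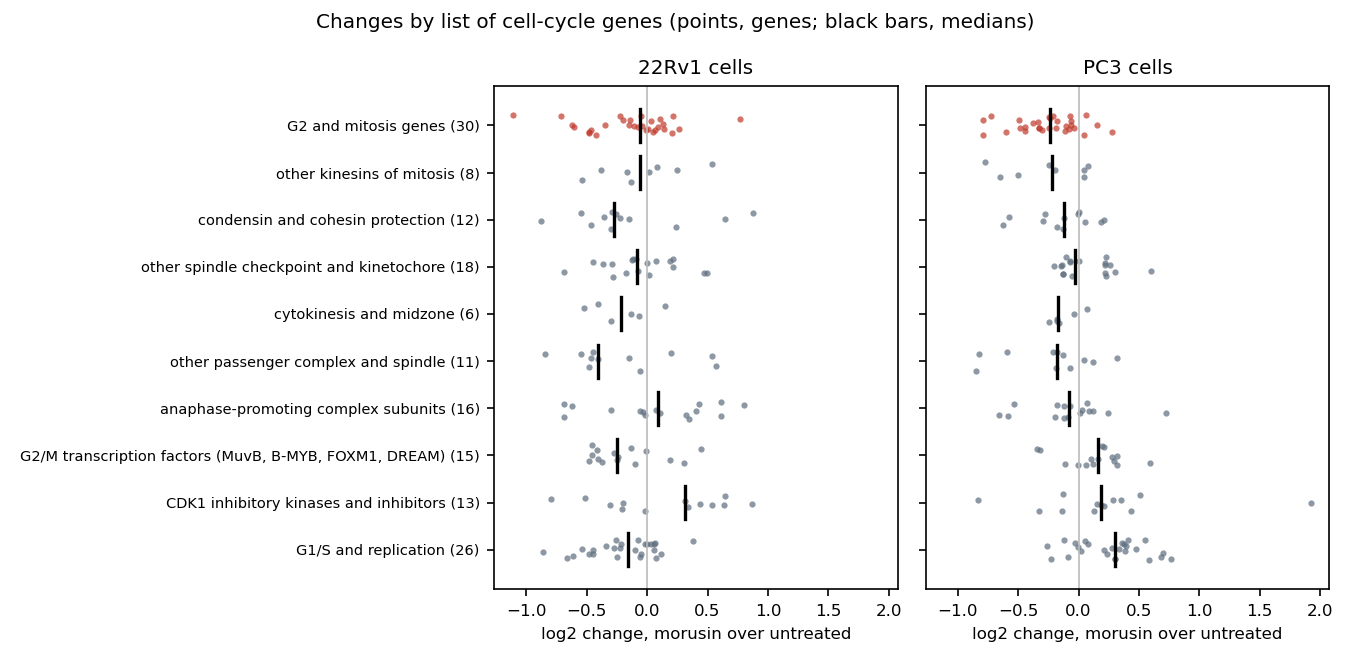
Log2 change, morusin over untreated on the FPKM + 1 scale, of each gene (points) in the 30 G2 and mitosis genes (red, top) and in 9 further lists of cell-cycle genes, in 22Rv1 (left) and PC3 (right), with black bars at the medians and the number of genes in brackets. In PC3 the median of the mitosis genes is -0.24 and that of the G1/S list is 0.30.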

How the data were processed

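RNA libraries from a TruSeq RNA v2 kit were read as 150-base pairs, per the labels' protocols. Per the submitters' processing notes, the tools included Trimmomatic, HISAT2 and StringTie, with build GRCh38, and with versions, annotation release and strand use not given in the sources used here. FPKM per Ensembl gene, 1 column per library, were deposited by the authors. FPKM is relative to each library's total, and no counts were used.

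Symbols came from a gene name table. Lengths and overlaps came from GENCODE 29 (longest basic transcript), not known to be the release the authors used. A change is log2 (FPKM + 1) of the treated library minus that of the untreated one, a scale that understates changes of low genes. Genes that reached 1 FPKM in either library of a line were used. The lines pair the libraries in limma 3.58.1 (mean trend, genes at 1 FPKM in at least 2 libraries), which leaves 1 residual degree of freedom. That degree of freedom is the difference between the lines in the change, so p-values measure this spread, pooled in part across genes. Differences of dose and medium enter it. The labels do not say that libraries came from separate cultures, so part of the spread may be technical.

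Depth was inferred from single-exon genes of 600 to 5000 bases, whose values times length pile up at 1 read pair (tolerance 1.5%). The limma script was tested on simulated data.

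The members, lists, sizes and alternatives were chosen with earlier results of these data known. All 30 members are described. Genes of further lists were named by a rule of size (in each line, up to 2 per list with 5 FPKM or more), and NDC80, FOXM1, HOXB13 and KLK2 were chosen after their values were seen. Not every gene that this rule allows is named, such as KNL1 and RBL2, and no gene of the G1/S list is. Alternatives were pseudocounts of 0.1 and 5, no filter, equal sums, median centring, removal of the length trend and no line term. Python 3.11.15, numpy 2.4.6, pandas 2.3.3, matplotlib 3.10.9 and R 4.3.3 were used. A result for 1 marker gene is not reported here.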

Additional observations from a re-analysis of the deposited data

Results flagged for a closer look

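In 9 members the change had opposite signs in the 2 lines, each larger than 1.96 counting errors. With 1 library per group the difference was not tested. Without the cut on counting error, 12 of the 30 members had opposite signs, against 32.2% of all genes used in both lines. An all-gene share with that cut is not given. Above 0 in 22Rv1 and below 0 in PC3 were CCNB1 (log2 change 0.21 and -0.48), CCNB2 (0.22 and -0.11), CDC20 (0.27 and -0.075), CDC25B (0.14 and -0.24), NEK2 (0.13 and -0.18), PLK1 (0.10 and -0.21) and NUSAP1 (0.064 and -0.79). Below 0 in 22Rv1 and above 0 in PC3 were TPX2 (-0.14 and 0.15) and MKI67 (-0.71 and 0.044). Rescaling to equal sums put CDC25B, NEK2, PLK1 and NUSAP1 below 0 in 22Rv1 and MKI67 below 0 in PC3. Summed with the gene that overlaps it, NUSAP1 was at 0.10 in 22Rv1 and -0.06 in PC3.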

How the results depend on the processing

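With 1 library per group, no replicate could be left out, and each value stands on 1 pair of libraries. Over all settings run, 16 members stayed below 0 and 4 above 0 in 22Rv1, and 20 stayed below 0 and 2 above 0 in PC3. How many of all genes kept their sign over these settings was not counted. Rescaling to equal sums moved the median of all genes to -0.18 in 22Rv1 and -0.14 in PC3. It moved the members' median to -0.25 in 22Rv1, -0.33 in PC3 and 0.19 for the difference between the lines, while their distance from the all-gene median became -0.07 and -0.20, from -0.05 and -0.19. Removing the length trend gave -0.14 in PC3 and 0.17 for the difference, or -0.12 and 0.19 with the median transcript length, a choice made after seeing the data. ASPM at 2-fold in 22Rv1 was lost with either length trend removed and with a pseudocount of 5 (0 members). For the untreated lines, 22Rv1 minus PC3, median centring gave -0.50, and the distance from the all-gene median was -0.41 with a pseudocount of 5 and -0.40 without a filter. A pseudocount of 0.1 put 1 member at 2-fold higher in 22Rv1.

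Genes at least 2-fold higher and lower in 22Rv1 numbered 465 and 136 as deposited (77.4% higher), 844 and 376 with a pseudocount of 0.1 (69.2%), 151 and 33 with one of 5, 255 and 351 at equal sums (42.1%), and 252 higher with the length trend removed (58.5%). In PC3 they were 160 and 341 (31.9%), 259 and 680 with a pseudocount of 0.1, 74 and 85 with one of 5 (46.5%), and 209 lower with the length trend removed (40.6%). Shared calls of 49 higher and 33 lower became 18 and 15 with a pseudocount of 5, 0 and 0 without a filter, 313 and 1278 at equal sums (3 members lower), 156 higher with median centring, and 10 or 24 higher with the length trend removed by longest or median length. Without the replicate block, that is with the line left out, limma called 0 higher and 0 lower. The cause of these shifts was not tested.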
